A study of Homo sapiens with 6 samples.

Results

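The nuclear genes of oxidative phosphorylation, the mitochondrial machinery that makes ATP from respiration, were followed in HL60 cells after 5 days of tretinoin. Members were chosen by symbol alone, as genes with an HG-U133A probe set annotated to no other gene whose symbol begins with NDUF, SDHA, SDHB, SDHC, SDHD, UQCR, ATP5, or COX and a digit, together with CYC1, CYCS and SURF1. This gave 82 genes with 120 probe sets, of 11963 genes that have a probe set of their own among the 22283 on the array. A further 12 probe sets that pair such a symbol with another gene were left out. The members comprise 66 subunits of the 5 complexes and of cytochrome c, 12 assembly factors, 1 inhibitor of the ATP synthase, 1 relative of a cytochrome oxidase subunit, 1 antisense RNA and 1 pseudogene. SDHB, the iron-sulfur subunit of complex II, and the 13 subunits encoded in mitochondrial DNA were not analysed here.

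The HL60 line was established from a human promyelocytic leukemia and matures toward granulocytes under tretinoin (all-trans retinoic acid). In the tretinoin group the cells received 1 μM of the drug dissolved in dimethyl sulfoxide (DMSO) at 0.1%, and in the control group DMSO at 0.1% with no drug, each for 5 days, so that both groups share the solvent. There are 3 arrays of each group. By the study's own legend these are parallel hybridizations of pooled labelled product, so every p-value below measures the spread between hybridizations and not between cultures. Where the RNA comes from a whole culture, fewer cells of a kind and less RNA per cell cannot be told apart.

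In the inner mitochondrial membrane, complex I takes electrons from NADH and complex II takes them from succinate, and both hand them to ubiquinone. Complex III passes them on to cytochrome c, complex IV gives them to oxygen, and the protons pumped along the way drive the ATP synthase, or complex V. Most subunits are encoded in the nucleus, and myeloid cells are known to rely less on respiration as they mature into neutrophils.

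Values are linear signal intensities brought to the same mean on every array, with values below 20 set to 20. On each array 12239 to 13397 probe sets (54.9% to 60.1%) then stood above 20. Across probe sets, log2 signals correlated at 0.957 to 0.975 between arrays of the same group and at 0.850 to 0.862 between groups. All 7 measured promyelocytic markers, MPO and MYB among them, were above 20 on every DMSO array and lower in tretinoin (summed signal 6760 to 7790 against 484 to 533). Of 16 measured markers of erythroid, T, B, epithelial or fibroblast cells, 6 were at 20 on all arrays, 8 were tested and 0 were called by limma, also at an unadjusted p below 0.05. A measure of RNA and labelling quality, the 3' over 5' signal of ACTB, was 1.38 to 1.42 in DMSO and 1.14 to 1.17 in tretinoin, whereas that of GAPDH was 1.06 to 1.17 and 1.15 to 1.19. The part of this quality measure in the results below was not tested.

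Tretinoin moved oxidative phosphorylation genes in both directions. A gene was called when limma, fitted to all tested probe sets, put its adjusted p below 0.05 and its change at 1.5-fold or more, and each gene was read from its brightest probe set. Of the 77 members tested, 11 were higher in tretinoin (14.3%) and 10 were lower (13.0%), whereas over all 8151 genes tested 13.6% were higher and 14.4% were lower. The count therefore lay near the background in both directions. The median log2 fold change of the members was -0.06, beside -0.04 over all genes tested. The members spanned -1.16 to 0.94, and all genes spanned -4.76 to 5.76. At an unadjusted p below 0.05, without a minimum fold, 16 members were higher (20.8%) and 23 were lower (29.9%). Of all genes tested, 19.7% were higher and 22.1% were lower at that limit. A log2 fold change below 0 was seen for 57.1% of the members and 53.2% of all genes tested. At a minimum of 2-fold, 3 members were lower and 0 were higher, against 6.82% and 7.61% of all genes.

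The 95% interval of the log2 fold change lay within 1.5-fold either way for 28 of the 77 members, or 36.4%, against 19.6% of all genes tested. The median absolute log2 change was 0.33 for the members and 0.37 for all genes tested. Of the members tested, 76 were above 20 on all 6 arrays, and the part of signal level in the interval widths was not tested. For 50 of the 77 members, the 3 arrays of one group lay entirely above or below those of the other. Tretinoin was above for 23 and below for 27. Over all 8151 genes tested, 1760 (21.6%) and 2018 (24.8%) did so, which are smaller shares than those of the members. Genes were tested from 3 arrays above 20 upward, and the part of signal level in these shares was not tested either. The number of members called higher moved with the scaling and with single arrays: it was 1 without scaling, where the median of all genes was -0.22, 7 after quantile normalization, 6 without tretinoin replicate 1 and 7 without tretinoin replicate 3. The 5 that lost the call without tretinoin replicate 1 were ATP5PD, COX6B1, NDUFA3, NDUFB5 and UQCR11. The count of lower members was 8 to 12 in all of these settings.

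**Figure D1:**
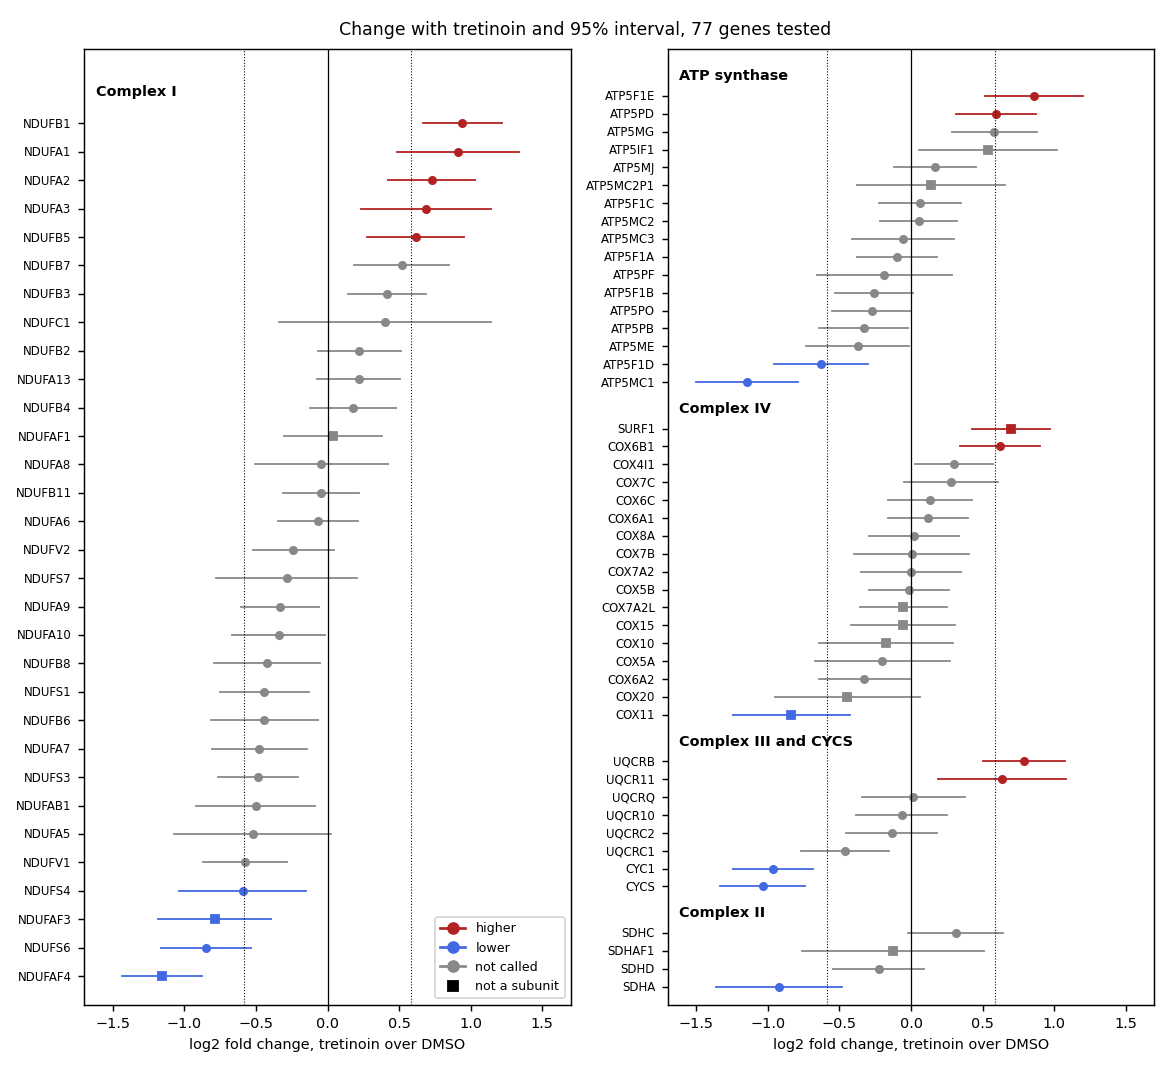
Fitted log2 fold change of tretinoin over DMSO (x axis) for each of the 77 members tested, grouped by complex, with the 95% interval as a line. Dotted lines mark 1.5-fold either way; red members were called higher, blue lower and grey neither, squares are not subunits of a complex, and calls of both colours stand within complexes I, III, IV and V, while the 1 call of complex II is lower.

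The promoters of these genes are known to share binding sites for NRF1, for ETS factors such as GABPA, and for YY1. The RefSeq promoter table of GRCh38.p14, which holds 250 bases before to 50 bases after each start, matched 71 of the 82 members. Motifs were searched as exact letters on both strands. The letters GCATGCGC, the core of the NRF1 site, stood in 15 of the 71 members' promoters (21.1%), in 5.22% of the 6724 promoters of genes tested on the array and in 3.27% of all 27305 promoters. The ETS core CCGGAAG stood in 22 (31.0%, against 18.2% and 10.7%) and the YY1 letters AAGATGGC in 11 (15.5%, against 5.77% and 3.03%). The E-box CACGTG stood in 8 (11.3%, against 10.4% and 7.44%).

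Among the members called, the NRF1 core GCATGCGC was found for 3 of the 7 lower genes with a promoter in the table and for 0 of the 9 higher ones. The ETS core was found for 1 of the 7 lower and 5 of the 9 higher. Of the 51 members not called, 11 held the NRF1 core and 15 held the ETS core. The counts among called members are small, and all counts describe the letters of one window only. Whether either motif goes with a direction of change was not tested. The promoters of 2 genes that fell, CYCS and NDUFAF4, and of 2 that rose, NDUFA1 and SURF1, are shown because they hold these motifs on each side of the response. Capitals mark GCATGCGC and CCGGAAG, or the same letters read on the other strand.
CYCS, chr7:25125211-25125510, minus strand, with GCATGCGC starting 169 bases before the start: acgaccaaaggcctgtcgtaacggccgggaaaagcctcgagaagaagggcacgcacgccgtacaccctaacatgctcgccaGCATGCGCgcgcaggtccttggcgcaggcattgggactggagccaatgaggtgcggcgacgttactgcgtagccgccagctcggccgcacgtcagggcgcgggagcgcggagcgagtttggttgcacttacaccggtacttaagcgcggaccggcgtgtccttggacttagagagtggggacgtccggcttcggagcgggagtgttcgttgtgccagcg
NDUFAF4, chr6:96897842-96898141, minus strand, with CCGGAAG 147 bases before the start and GCATGCGC on the other strand at base 7 after it: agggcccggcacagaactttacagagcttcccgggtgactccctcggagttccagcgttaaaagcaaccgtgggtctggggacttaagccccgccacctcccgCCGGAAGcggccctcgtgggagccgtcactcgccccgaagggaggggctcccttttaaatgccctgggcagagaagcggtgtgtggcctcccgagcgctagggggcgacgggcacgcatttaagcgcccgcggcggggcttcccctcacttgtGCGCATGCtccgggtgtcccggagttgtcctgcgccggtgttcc
NDUFA1, chrX:119871582-119871881, plus strand, with CCGGAAG on the other strand 47 bases before the start: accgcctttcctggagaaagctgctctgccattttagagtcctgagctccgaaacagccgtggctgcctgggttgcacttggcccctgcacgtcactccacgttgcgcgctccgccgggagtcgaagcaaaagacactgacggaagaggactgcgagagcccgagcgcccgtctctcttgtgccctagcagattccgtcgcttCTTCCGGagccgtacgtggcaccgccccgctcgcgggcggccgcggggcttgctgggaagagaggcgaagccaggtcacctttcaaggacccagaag
SURF1, chr9:133356438-133356737, minus strand, with CCGGAAG at base 8 after the start: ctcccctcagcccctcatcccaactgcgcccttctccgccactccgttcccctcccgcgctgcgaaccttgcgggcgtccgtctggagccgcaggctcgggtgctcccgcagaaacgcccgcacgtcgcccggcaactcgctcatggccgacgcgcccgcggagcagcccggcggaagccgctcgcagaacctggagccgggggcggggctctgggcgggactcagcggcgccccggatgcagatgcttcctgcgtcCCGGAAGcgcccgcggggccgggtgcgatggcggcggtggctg

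In complex I, the NADH dehydrogenase, 5 of 31 tested members were higher (16.1%) and 4 were lower (12.9%). The median log2 fold change was -0.24. Over all genes tested 13.6% were higher and 14.4% lower, so these shares lay near the background. At an unadjusted p below 0.05, 7 members were higher (22.6%) and 13 lower (41.9%), against 19.7% and 22.1% of all genes. The same shares of all genes are the background for each complex below. The higher calls in complex I were all in accessory subunits, which surround the catalytic core and are needed for its assembly and stability. NDUFB1, an accessory subunit of the membrane arm, read 350.2, 332.1 and 340.9 on the DMSO arrays and 687.3, 629.7 and 649.5 on the tretinoin arrays. The groups did not overlap, and NDUFB1 was 1.92-fold higher (log2 0.94 ± 0.12 SE, limma adjusted p = 0.00103). This was the only higher member whose call held in every setting other than a 2-fold minimum.

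NDUFA1, a small membrane-bound accessory subunit encoded on the X chromosome, read 422.7, 381.1 and 392.0 in DMSO and 810.9, 586.3 and 883.7 in tretinoin. All tretinoin arrays were above all DMSO arrays, with tretinoin replicate 2 the lowest of its group (1.91-fold, log2 0.91 ± 0.18, adjusted p = 0.00787). NDUFA2, an accessory subunit of the peripheral arm, went from 265.7, 257.5 and 270.9 to 447.1, 393.5 and 477.4 (1.66-fold, adjusted p = 0.00503). NDUFB5 went from 291.4, 303.8 and 319.5 to 489, 401.5 and 519.2 (1.54-fold, adjusted p = 0.0156) and NDUFA3 from 177, 168.3 and 250.2 to 316, 278.9 and 353.6 (1.59-fold, adjusted p = 0.0313). Both groups of arrays stayed apart for these genes as well, although NDUFA3 lost its call in 7 of the 20 alternative settings other than the 2-fold minimum, and NDUFB5 in 5.

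The lower calls in complex I were in other accessory subunits and in assembly factors. Assembly factors are proteins that help build the complex and are not part of it. NDUFAF4, an assembly factor, read 107.7, 108.2 and 121.2 in DMSO and 50, 50.9 and 50.2 in tretinoin, so that the tretinoin arrays lay within 1 unit of each other. It was 2.23-fold lower (log2 -1.16 ± 0.12, adjusted p = 0.000478). NDUFAF3, a partner of NDUFAF4 in early assembly, went from 196.4, 227.1 and 197.1 to 115.4, 101.7 and 145.2 (1.71-fold lower, adjusted p = 0.0108). The remaining assembly factors above 20 comprised NDUFAF1 alone, which read 53.1 to 68.7 in DMSO and 57.0 to 62.9 in tretinoin and was not called (log2 0.04). NDUFAF5 and NDUFAF7 were at or near 20 and were not tested.

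Of the subunits, NDUFS6 went from 342.9, 405 and 358.4 to 210.8, 186.3 and 216.7 (1.80-fold lower, log2 -0.85 ± 0.13, adjusted p = 0.00307), with no overlap. NDUFS4, an accessory subunit of the peripheral arm, went from 185.8, 174.9 and 157.1 to 127.5, 88.2 and 132.1 (log2 -0.59 ± 0.19, adjusted p = 0.0493). The NDUFS4 call stood just past both limits and was lost in 11 of 20 alternative settings, the replicate block among them.

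Of the 5 measured core subunits, which do the catalysis, 0 were called by limma, and 3 were lower at an unadjusted p below 0.05, as were 22.1% of all genes tested. Their log2 fold changes ran from -0.58 to -0.24, and each stayed below 0 in every setting tried. NDUFV1, which binds NADH and the flavin, read 508.6, 490.2 and 490.4 in DMSO and 306.4, 329.8 and 364.5 in tretinoin, with no overlap. Its adjusted p was 0.0117, but its fitted change of -0.58 fell just short of 1.5-fold. NDUFS3 and NDUFS1 were similar, with log2 fold changes of -0.49 (adjusted p = 0.0183) and -0.44 (adjusted p = 0.0406), again short of 1.5-fold. NDUFV2 and NDUFS7, iron-sulfur subunits, gave -0.24 and -0.29, with adjusted p of 0.180 and 0.351. The 23 accessory subunits spanned -0.85 to 0.94 with a median of -0.04, and 5 were called higher and 2 lower. At an unadjusted p below 0.05, 7 accessory subunits were higher (30.4%) and 8 were lower (34.8%). Of all genes tested, 19.7% and 22.1% were so. The difference between core and accessory subunits was not tested.

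Among accessory subunits that were not called, NDUFAB1, also the acyl carrier protein of mitochondrial fatty acid synthesis, read 631.4, 678 and 791.1 in DMSO and 545.6, 399.1 and 547.1 in tretinoin (log2 -0.50, adjusted p = 0.0683). NDUFA13 read 537.1, 545.1 and 546 in DMSO and 655.1, 576.2 and 667.7 in tretinoin (log2 0.22, adjusted p = 0.228). For both genes the groups did not overlap, but the differences did not pass.

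**Figure D2:**
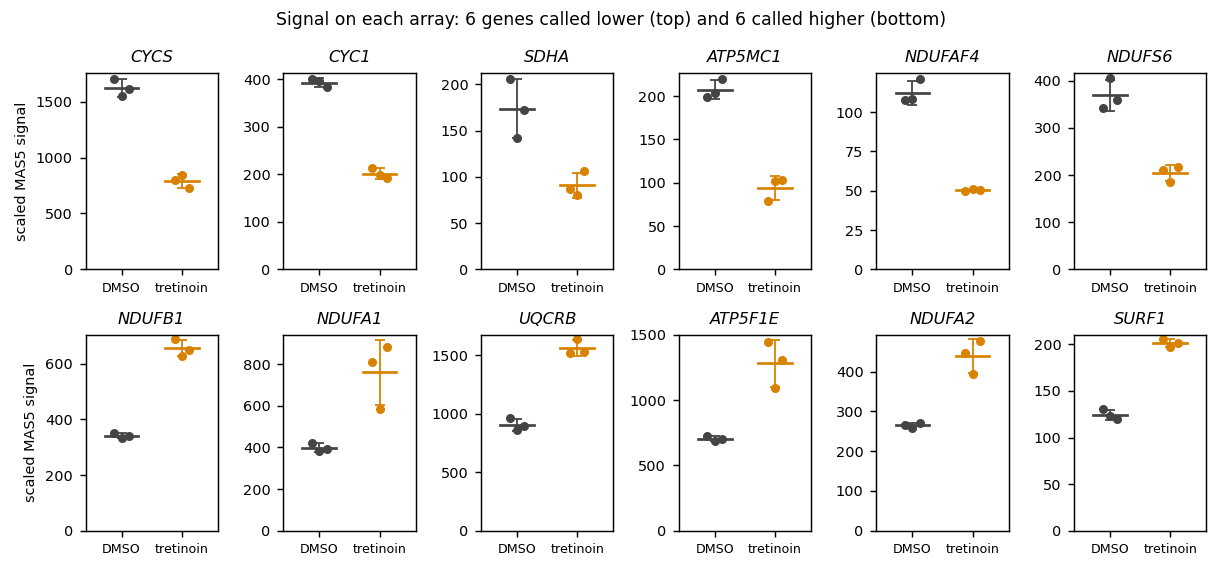
Scaled signal on each of the 6 arrays (y axis, linear and from 0) for 6 members called lower (top row) and 6 called higher (bottom row), DMSO in grey and tretinoin in orange, with the mean as a bar and the SD of 3 arrays as whiskers. In every panel the 3 tretinoin arrays lie on one side of the 3 DMSO arrays; for SDHA, for example, the highest tretinoin array is at 106.1 and the lowest DMSO array at 141.8.

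In complex II, the succinate dehydrogenase, 1 of 4 tested members was lower and 0 were higher, also at an unadjusted p below 0.05. SDHA, the flavoprotein that oxidizes succinate, read 205.6, 141.8 and 172.8 in DMSO and 87.3, 79.9 and 106.1 in tretinoin. The groups did not overlap in spite of a wide spread in DMSO, and SDHA was 1.90-fold lower (log2 -0.92 ± 0.19, adjusted p = 0.00865). SDHA has near-identical pseudogene copies, and whether the probes read them was not tested.

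The membrane anchors of complex II did not pass. SDHD read 198.4, 227 and 191 in DMSO and 169.8, 191.8 and 165.3 in tretinoin, where the ranges overlapped (log2 -0.23, adjusted p = 0.258). SDHC read 164.3, 127.2 and 141.4 against 176.6, 172.1 and 185.9 (log2 0.31, adjusted p = 0.139). All 4 SDHC probe sets had log2 fold changes above 0, from 0.16 to 0.64, and 1 of them was called higher (from 84.6, 89.1 and 90.6 to 136.5, 130.1 and 144.2, adjusted p = 0.00625). The assembly factor SDHAF1 gave -0.13 (adjusted p = 0.773), with 81.6 to 149.7 in tretinoin around 106.2 to 163.3 in DMSO.

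Complex III, the cytochrome bc1 complex, had 2 higher and 1 lower among its 7 members. CYC1, cytochrome c1, whose heme hands electrons to cytochrome c, read 399.8, 395.7 and 382.6 in DMSO and 214.1, 198.7 and 191.2 in tretinoin. The arrays of each group lay close together and far from the other group, and CYC1 was 1.95-fold lower (log2 -0.97 ± 0.12, adjusted p = 0.000992). UQCRB, a small subunit near the ubiquinone site, moved the other way, from 962.7, 858.9 and 895.8 to 1523, 1639 and 1528 (1.73-fold higher, log2 0.79 ± 0.12, adjusted p = 0.00264). All 3 of its probe sets were called higher, with log2 fold changes of 0.79 to 0.87. UQCR11, another small subunit, went from 358.8, 422.8 and 497.3 to 682.9, 539.8 and 765.1 (1.55-fold higher, adjusted p = 0.0399), with a gap between the groups smaller than the spread within each, and lost its call in 9 of 20 alternative settings.

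The remaining members of complex III were not called. UQCRC1, a core protein that faces the matrix, read 580.5, 577.6 and 528.2 in DMSO and 450.9, 378.2 and 398.8 in tretinoin (log2 -0.46, adjusted p = 0.0326), below 1.5-fold. UQCR10 read 854.1, 953.3 and 912.7 against 976.1, 798.2 and 831 (log2 -0.07, adjusted p = 0.763), with overlapping groups, and UQCRC2 and UQCRQ gave -0.14 and 0.02.

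CYCS, cytochrome c, carries electrons from complex III to complex IV and starts the caspase cascade when it leaks from mitochondria. It read 1704, 1547 and 1610 in DMSO and 798.9, 846.4 and 727.3 in tretinoin. Every tretinoin array was below every DMSO array by a wide margin, and CYCS was 2.05-fold lower (log2 -1.04 ± 0.13, adjusted p = 0.000941). CYCS, ATP5MC1 and NDUFAF4 were the 3 members whose call held in every setting, the 2-fold minimum included. CYCS and CYC1 are successive carriers in the chain, and both were lower. Over the 9 measured members that hold a flavin, heme or iron-sulfur cofactor or anchor a heme (NDUFV1, NDUFV2, NDUFS1, NDUFS7, SDHA, SDHC, SDHD, CYC1 and CYCS), a grouping made after their values were seen, 3 were lower and 0 were higher by limma (5 and 0 at an unadjusted p below 0.05), and 8 had a log2 fold change below 0. Over all genes tested 14.4% were called lower, 22.1% were lower at an unadjusted p below 0.05 and 53.2% were below 0, and since the grouping followed the values, these counts are a description only.

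In complex IV, the cytochrome c oxidase, 11 of the 12 subunits were tested, and 1 was higher and 0 were lower by limma (1 lower at an unadjusted p below 0.05), with a median log2 fold change of 0.02. For 7 of these 11 the 95% interval lay within 1.5-fold either way. COX6B1, a subunit on the cytochrome c side, read 509.4, 470.9 and 496.4 in DMSO and 799.2, 717.8 and 755.1 in tretinoin, with no overlap (1.54-fold higher, log2 0.62 ± 0.12, adjusted p = 0.00711). It lost its call in 3 of 20 alternative settings.

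The other tested subunits of complex IV were not called. The intervals of COX5A (log2 -0.20, interval -0.67 to 0.27), COX7C (log2 0.28, interval -0.05 to 0.61) and COX6A2 (interval -0.65 to -0.01) reached past 1.5-fold. All 3 COX7C probe sets had log2 fold changes above 0, from 0.24 to 0.53, and 0 were called. COX6A1, the common isoform of subunit 6A, read 1344, 1378 and 1404 in DMSO and 1492, 1582 and 1405 in tretinoin (log2 0.12, interval -0.16 to 0.40). COX6C read 1170, 1184 and 1029 against 1207, 1281 and 1211 (log2 0.13, interval -0.16 to 0.42). COX4I1, the common isoform of subunit 4, read 972.1, 930 and 1001 against 1230, 1148 and 1193 (log2 0.30, adjusted p = 0.0942). COX4I1 thus differed without overlap but did not pass, and the groups of COX6A1 and COX6C differed by little more than the spread between arrays. Of the muscle isoforms, COX7A1 was at 20 on all 6 arrays, and COX6A2 read 48.5 to 53.4 in DMSO and 36.3 to 45.0 in tretinoin (log2 -0.33, adjusted p = 0.110). COX7A2, the common isoform of subunit 7A, read 1092, 931.2 and 863.7 against 995.4, 856.8 and 1032 (log2 0.00, interval -0.35 to 0.35). COX7A2L, which joins complexes III and IV, gave -0.05 and COX8A gave 0.02.

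Among the 5 assembly factors of complex IV, 1 was higher and 1 was lower. SURF1, whose loss causes a severe oxidase deficiency, read 130.7, 122.7 and 119.8 in DMSO and 205.9, 196.8 and 201.9 in tretinoin. The groups were narrow and well apart, and SURF1 was 1.62-fold higher (log2 0.70 ± 0.12, adjusted p = 0.00383). The study picked this SURF1 probe set on these same arrays for its 90-transcript bead assay, so its direction is not independent evidence. The assay joins 2 probes of 20 bases each on the transcript, and their gene-specific parts are shown because they name the stretch of SURF1 that was read outside the array, with capitals at the bases on either side of the joint.
SURF1 probe pair, joined: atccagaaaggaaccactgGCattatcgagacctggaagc

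COX11, which delivers copper to the oxidase, read 142.1, 167.4 and 160 in DMSO and 109.1, 79.2 and 77.4 in tretinoin (1.77-fold lower, log2 -0.84 ± 0.17, adjusted p = 0.0096). Its groups did not overlap, but the other tested probe set, at 40.2, 25.2 and 26.7 in DMSO and 25.6, 23.5 and 25.3 in tretinoin, gave -0.28 and was not called. COX10 and COX15, which make heme O and heme A for the oxidase, gave -0.18 and -0.06 and were not called. COX20 read 87, 68.4 and 54.7 against 60.5, 42.8 and 49.7 (adjusted p = 0.164). The accession of that COX20 probe set belongs to HOXA7 in RefSeq, so the value may not be of COX20; it was 1 of 70 member probe sets with a RefSeq accession, and the other 69 matched.

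In complex V, the ATP synthase, 2 of 17 tested members were higher and 2 were lower, with a median of -0.05. ATP5F1A and ATP5F1B, the alpha and beta subunits of the catalytic head, were not called. ATP5F1A read 2052, 2091 and 1940 in DMSO and 1813, 1891 and 1989 in tretinoin (log2 -0.10, interval -0.37 to 0.18). ATP5F1B read 1764, 1848 and 1815 against 1571, 1462 and 1510 (log2 -0.26, interval -0.53 to 0.01, adjusted p = 0.138). The intervals of both genes lay within 1.5-fold either way.

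The central stalk, which turns inside the head, had 1 higher and 1 lower of 3 subunits. ATP5F1E, the epsilon subunit, went from 722.6, 685.1 and 703.3 to 1447, 1090 and 1308 (1.82-fold higher, log2 0.86 ± 0.14, adjusted p = 0.00412). ATP5F1D, the delta subunit, went from 245.4, 246 and 262.2 to 143, 163.8 and 182.6 (1.54-fold lower, log2 -0.63 ± 0.14, adjusted p = 0.0121), and its second probe set was also called lower (log2 -1.09, adjusted p = 0.0496). Neither gene overlapped between groups. ATP5F1C, the gamma subunit, gave 0.06. In the outer stalk, which holds the head still, ATP5PD, subunit d, went from 1018, 1033 and 1080 to 1636, 1469 and 1620 (1.51-fold higher, adjusted p = 0.00861), and ATP5PB, ATP5PF and ATP5PO were not called. The ATP5PD groups lay far apart, yet its fitted change of 0.59 was close to the minimum and its call was lost in 6 of 20 alternative settings.

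Subunit c, which forms the ring that protons turn, is made from ATP5MC1, ATP5MC2 and ATP5MC3, whose mature proteins are known to be the same. ATP5MC1 read 198.7, 203.8 and 219.3 in DMSO and 78.4, 101.6 and 103.1 in tretinoin. Every tretinoin array was far below the DMSO arrays, and ATP5MC1 was 2.20-fold lower (log2 -1.14 ± 0.15, adjusted p = 0.00142). ATP5MC2 read 956.4, 973.8 and 996.7 against 1039, 982.8 and 1015 (log2 0.05, interval -0.22 to 0.32). ATP5MC3 read 886.5, 869.3 and 832.6 against 981.2, 720.4 and 810.3 (log2 -0.05, interval -0.41 to 0.30). Of the 3 genes, then, ATP5MC1 was called, and the intervals of the other 2 did not overlap its interval of -1.50 to -0.79.

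ATP5MG, subunit g of the membrane part, read 1159, 1230 and 1036 in DMSO and 1745, 1651 and 1716 in tretinoin. The groups were well apart, and the fitted log2 fold change of 0.58 (adjusted p = 0.0116) fell just short of 1.5-fold. Of its 4 probe sets, with log2 fold changes of 0.52 to 0.77, 2 were called higher. ATP5IF1, which blocks the synthase from running backwards, read 129, 156.2 and 218.6 against 230.2, 250.4 and 234.7 (log2 0.54, adjusted p = 0.0874), without overlap but with a wide spread in DMSO.

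**Figure D3:**
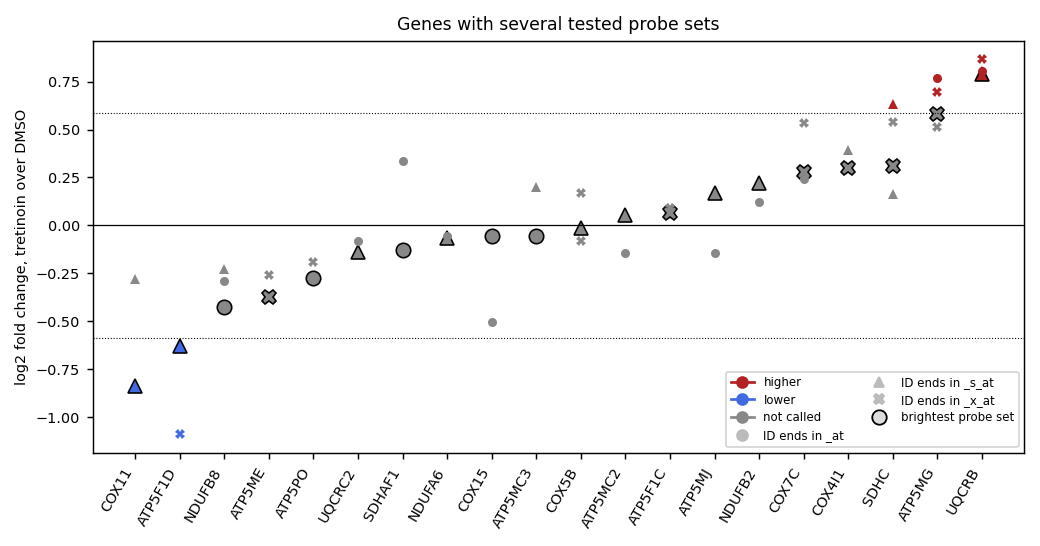
Log2 fold change of tretinoin over DMSO (y axis) for each tested probe set of the 20 members with more than 1 tested probe set, with the brightest outlined, and the shape giving the ending of the probe set ID (an s or x mark is given to probe sets that may bind several transcripts). Red was called higher, blue lower and grey neither; the call depends on the probe set for ATP5MG, COX11 and SDHC, and no gene has probe sets called in opposite directions.

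In all, 25 members had more than 1 probe set. Of the 106 member probe sets tested, 16 were called higher and 11 lower, where 13.6% and 13.8% of all 13374 probe sets tested were. Tretinoin replicate 2 was the lowest tretinoin array for 43 of the 77 members and the highest for 19, so it was an extreme of its group for 80.5% of the members and for 76.0% of all genes tested. Of the 21 members called, 8 kept their call in every setting other than the 2-fold minimum, namely ATP5MC1, CYC1, CYCS, NDUFAF3, NDUFAF4, NDUFS6 and SDHA, all lower, and NDUFB1, higher. ATP5F1E, NDUFA1, NDUFA2, SURF1 and UQCRB lost theirs only without scaling and at 2-fold. No called member changed sign in any setting.

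Genes that work beside the respiratory chain were counted in the same fit, from lists that share no member with it. Of 49 tested genes of the mitochondrial ribosome, which makes the subunits encoded in mitochondrial DNA, 22 were lower and 0 were higher (32 and 0 at an unadjusted p below 0.05), with a median log2 fold change of -0.48. Over all genes tested, 14.4% were called lower and 13.6% higher, and 22.1% and 19.7% were so at an unadjusted p below 0.05, which is the background for each list here. MRPL3 was 2.98-fold lower (log2 -1.59, limma adjusted p = 0.000572) and MRPL12 was 2.24-fold lower (adjusted p = 0.00334). Of 13 tested regulators of mitochondrial gene expression, 6 were lower and 0 were higher (8 and 0 at an unadjusted p below 0.05), with a median of -0.67, beside the same 14.4% and 22.1% lower of all genes. TFB2M, a factor needed to start transcription in mitochondria, went from 143.9, 143.6 and 154 to 54.6, 50.6 and 59.5 (2.68-fold lower, adjusted p = 0.000252). SSBP1, which coats single-stranded mitochondrial DNA, was 2.08-fold lower (adjusted p = 0.00125), and the polymerase POLRMT was 1.65-fold lower (adjusted p = 0.00688). PPRC1, a coactivator of the PGC-1 family, was at least 3.68-fold lower, since it exceeded 20 on 1 tretinoin array and the others were set to 20. Of the factors named above for the NRF1, ETS and YY1 motifs, NRF1 gave -0.09 and YY1 gave 0.08, and neither was called. GABPA was at 20 on all arrays. Factors that bind the E-box were not in this list, and MYC, one of the promyelocytic markers, was lower (log2 -4.03, limma adjusted p = 7.4e-06).

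**Figure D4:**
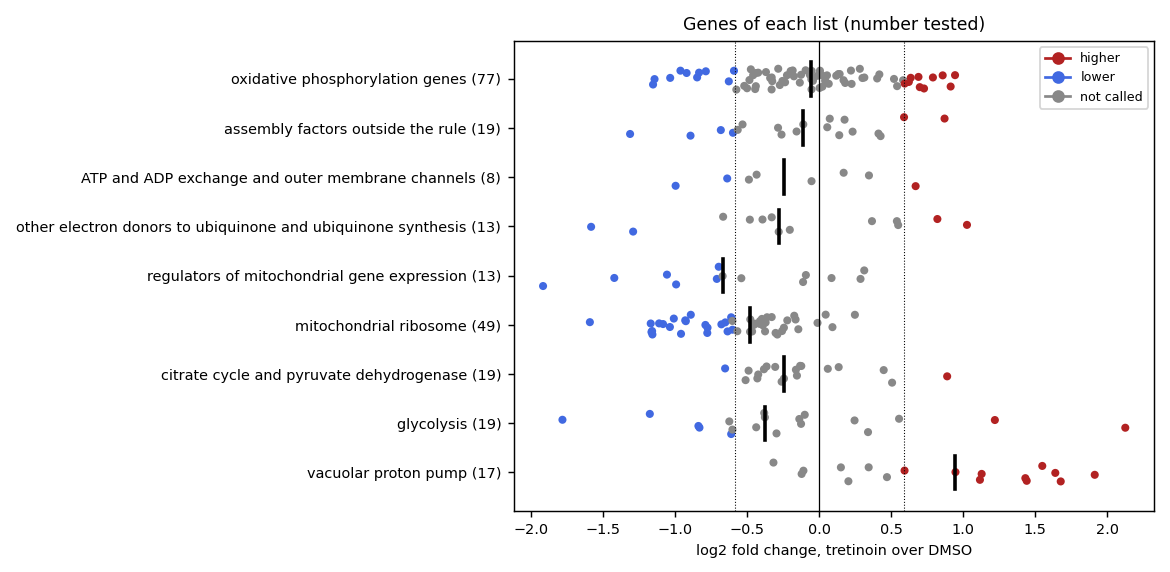
Log2 fold change of tretinoin over DMSO (x axis) for each tested gene of the oxidative phosphorylation members and of 8 neighbouring lists, with the number tested in brackets, the median as a black bar and 1.5-fold either way dotted. The medians run from -0.67 for the regulators of mitochondrial gene expression to 0.94 for the vacuolar proton pump, with the oxidative phosphorylation genes at -0.06.

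Of 19 tested assembly factors outside the symbol rule, 2 were higher and 4 were lower, with a median of -0.11. LRPPRC, which stabilizes mitochondrial messenger RNA, was 2.49-fold lower (adjusted p = 0.000363), and OXA1L, which inserts proteins into the inner membrane, was 1.83-fold higher (adjusted p = 0.00307). In the list of ATP and ADP exchange and outer membrane channels, which also holds other carriers, 1 of 8 tested genes was higher and 2 were lower. VDAC1, a pore of the outer membrane, was lower on every tretinoin array (242.1 to 268.7 in DMSO and 118.9 to 132.4 in tretinoin). UCP2, a carrier of the inner membrane, was 1.58-fold higher (adjusted p = 0.00746). Among other donors of electrons to ubiquinone and enzymes of its synthesis, 2 of 13 were higher and 2 were lower. COQ8A was 2.99-fold lower (adjusted p = 0.00025), and PDSS1, which starts the ubiquinone tail, was 2.45-fold lower (adjusted p = 0.000357). PDSS2 was at least 2.04-fold higher (adjusted p = 0.00286), since it exceeded 20 on 1 DMSO array and the others were set to 20. SQOR, which feeds electrons from sulfide, was 1.76-fold higher (adjusted p = 0.0021).

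The pathways that supply fuel, and a second family of proton pumps, were counted for comparison. Of all genes tested, 13.6% were called higher and 14.4% lower. In the citrate cycle with pyruvate dehydrogenase, 1 of 19 genes was higher and 1 was lower (median -0.25), OGDH at 1.80-fold higher (adjusted p = 0.032) and IDH3A at 1.56-fold lower (adjusted p = 0.0128). In glycolysis, 2 of 19 were higher and 5 were lower (median -0.38). LDHA, lactate dehydrogenase A, was 3.44-fold lower (adjusted p = 8.6e-05), LDHB was 2.26-fold lower (adjusted p = 0.000415) and the hexokinase HK1 was 2.33-fold higher (adjusted p = 0.000472). HK3, a myeloid hexokinase, was at 20 on all DMSO arrays and at 79.1 to 96.1 in tretinoin, at least 4.37-fold higher. Of 17 tested genes of the vacuolar proton pump, which acidifies lysosomes and is related to the ATP synthase, 10 were higher and 0 were lower (11 and 0 at an unadjusted p below 0.05), with a median of 0.94, where 13.6% of all genes were called higher and 19.7% were higher at an unadjusted p below 0.05. ATP6V1B2 rose 3.76-fold (adjusted p = 0.000109) and ATP6AP1 rose 3.20-fold (adjusted p = 0.000126). Differences between these lists and the oxidative phosphorylation genes were not tested.

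COXFA4, known for long as NDUFA4 and since assigned to complex IV, falls outside the symbol rule and was looked up after its value was seen. It read 366, 343 and 337 in DMSO and 770, 790 and 787 in tretinoin, with no overlap (2.24-fold higher, log2 1.17 ± 0.11, limma adjusted p = 0.000398). With its older symbol it would have been the member with the largest rise.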

How the data were processed

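Total RNA was amplified, labelled and hybridized to Affymetrix HG-U133A arrays by the authors, who deposited MAS5 signal intensity on a linear scale, before the scaling to equal overall intensity that their methods describe. Here a factor of 0.820 to 1.36 gave each array the mean of DMSO replicate 1, a floor of 20 was set, and limma 3.58.1 (lmFit and eBayes in R 4.3.3, statmod 1.5.0) was fitted to log2 signal with 1 mean per group. Probe sets above 20 on at least 3 arrays were tested (13374), with Benjamini-Hochberg adjustment over all of them. Folds are ratios of group means of scaled signal, or lower bounds where any array was at 20. The script was tested on simulated data.

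Probe sets were named from GEO's platform annotation: 19071 carried 1 symbol, 1043 several and 2169 none. The brightest probe set stands for a gene, by its mean over all 6 arrays. Named genes were all called members, the 2 brightest of each complex, isoform sets, the members listed by symbol in the rule, assembly factors, and genes whose probe sets differ in call; others are examples chosen after their values were seen. Members and gene lists were chosen with earlier results of these data known. The number of arrays limits precision. Replicate numbers did not pair arrays (correlation of deviations -0.03, -0.01 and 0.07). Alternatives were other scalings, floors, filters, variance settings, fold minimums, probe sets per gene, subunits only, a replicate block and each array left out. The planned comparison of protein sequences was not run. Python 3.11.15, numpy 2.4.6, pandas 2.3.3 and matplotlib 3.10.9 were used.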

Additional observations from a re-analysis of the deposited data

How the results depend on the processing

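The oxidative phosphorylation genes called lower ranged from 8 to 12 over all alternatives that kept the member list and the minimum fold, and those called higher moved more. Without scaling, 1 was called higher and 12 were called lower, the median log2 fold change of oxidative phosphorylation genes was -0.26 (all genes -0.22), and of all probe sets called higher there were 1142. After quantile normalization 7 were called higher and the median was -0.13. With the probe set of median change per gene the median was also -0.13. At a minimum of 2-fold, 0 members were called higher and 3 lower, and all probe sets called higher and all probe sets called lower numbered 1012 and 860. With no minimum fold, 14 were called higher and 15 lower. With single arrays left out, oxidative phosphorylation genes called higher ran from 6 to 12 and oxidative phosphorylation genes called lower from 8 to 10, with a median of -0.08 to -0.02, all probe sets called higher from 1442 to 1734 and all probe sets called lower from 1521 to 1967. The fit with the replicate block gave 11 higher and 9 lower members. Of the 56 members not called, 47 were called in no alternative. With 3 hybridizations of one pool per group, differences under 1.5-fold were seldom resolved (median SE 0.135 on the log2 scale), and the causes of these moves were not tested.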
